A study of Homo sapiens with 4 samples.

Results

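The 10 genes described here, ALDH1A1, ALDH1A2, ALDH1A3, ALDH1B1, ALDH2, ALDH3A1, ALDH3A2, ALDH3B1, ALDH7A1 and ALDH9A1, encode aldehyde dehydrogenases and were chosen by name from the 23228 genes counted. The study sorted cells of the ovarian cancer line SKOV3 for high ALDH activity with the ALDEFLUOR kit, grew them as spheroids without serum and treated these ovarian cancer stem cells (OCSCs) for 24 h with vehicle or with 5 µM LY500307, an agonist of estrogen receptor beta. RNA was sequenced from 2 Vehicle and 2 LY500307 libraries. All 4 libraries came from sorted ALDH+ cells, so no level here can be set against cells with low ALDH activity. No source used here says that the replicates of a treatment came from separate cultures, so the p-values measure the spread between these libraries, which may be technical.

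Aldehyde dehydrogenases oxidize aldehydes to carboxylic acids with NAD+ or NADP+ as the acceptor. In the ALDEFLUOR assay, cells take up a fluorescent aldehyde, the enzymes convert it to an acid that stays inside the cell, and the brightest cells are sorted as ALDH+. The assay reads the summed activity of the cell rather than one gene, although ALDH1A1 is the enzyme most often linked to it. ALDH1A1, ALDH1A2 and ALDH1A3 make retinoic acid from retinaldehyde, and retinoic acid acts through nuclear receptors.

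The libraries held between 28841701 and 34943882 reads assigned to genes. The LY500307 pair differed more than the Vehicle pair, with a chi-square per degree of freedom of 42.5 against 5.16. It was taken over the genes with at least 10 reads summed in the pair. LY500307 replicate 2 also had the lowest share of reads outside genes, 25.5% against 28.4% to 30.8%, and the part of this in the results was not tested. Markers of the labelled cells were checked before the ALDH genes. PAX8, a transcription factor of the Müllerian epithelium, had 0 reads in all 4 libraries. The epithelial keratin KRT7 had 0, 0, 0 and 1 reads (Vehicle 1 and 2, then LY500307 1 and 2), and the adhesion gene CDH1 had 0, 1, 4 and 4. EPCAM, also an epithelial adhesion gene, had 6213 to 8327 reads and KRT18 had 668 to 1030. Of 10 epithelial markers, 5 passed the filter on low counts, and 1, MUC1, met the study criteria given below (log2 fold change -0.59, adjusted p = 0.422). Over all tested genes 4.62% met these criteria. The summed epithelial level was 288 to 336 CPM (reads of a gene scaled to the depth of its library). EPCAM alone held 193.6 to 239.9 CPM of that sum. The keratin KRT8 had 9 to 33 reads, KRT19 at most 2 and the mucin gene MUC16 1 to 6. ERBB2, a growth factor receptor gene amplified in SKOV3, had 1452 to 2060 reads. Its TPM in Vehicle (a level scaled to depth and to gene length) exceeded those of 65.1% of genes, unexpressed ones included. The fibroblast-associated receptor gene PDGFRA had 39900 to 48624 reads, and the 8 fibroblast markers, all of which passed the filter, summed to 2380 to 2660 CPM. PDGFRA alone held 1401 to 1436 CPM of that sum and COL3A1 440.3 to 517.2 CPM. The lowest of the 8 were DCN, at 7.578 to 9.606 CPM, and PDGFRB, at 1.407 to 2.536 CPM. Of these 8 genes none met the study criteria. KDR had 3775 to 5246 reads while the endothelial genes PECAM1, CDH5 and VWF had at most 11, and of 6 leukocyte markers PTPRC and CD3E had at most 4. CD68, a lysosomal gene of macrophages that other cells also express, was the most expressed of the leukocyte list, with 376, 398, 620 and 372 reads, and the list summed to 12.2 to 18.5 CPM. Of the leukocyte list 2 genes were tested and of the endothelial list 1, KDR, and none of them met the criteria. Not all of these marker levels go with the epithelial origin that the label implies. The libraries are named here by their labels, and the identity of the cells was not tested. How far these marker levels bear on the ALDH levels was not tested either.

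The intended receptor gene of the agonist, ESR2, had 7 and 8 reads in Vehicle and 12 and 7 in LY500307, too few to be tested. ESR1, the gene of estrogen receptor alpha, had 0 reads in every library.

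The stretch in front of a gene's start is where general transcription factors assemble, and 3 such stretches are shown because they include the lowest and the highest G and C content of the 10. Each is the 250 bases upstream of the canonical transcript in GRCh37, written in the direction of the gene, with capitals marking the CCAAT box or its reverse complement. ALDH1A1 lies on the minus strand (chr9:75567970-75568219), ALDH1A3 on the plus strand (chr15:101419786-101420035) and ALDH1B1 on the plus strand (chr9:38392449-38392698).
ALDH1A1: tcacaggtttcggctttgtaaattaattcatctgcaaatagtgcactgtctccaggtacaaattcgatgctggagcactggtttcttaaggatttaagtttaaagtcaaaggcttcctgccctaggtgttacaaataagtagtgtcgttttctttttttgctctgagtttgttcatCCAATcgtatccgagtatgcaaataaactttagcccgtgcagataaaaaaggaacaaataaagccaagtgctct
ALDH1A3: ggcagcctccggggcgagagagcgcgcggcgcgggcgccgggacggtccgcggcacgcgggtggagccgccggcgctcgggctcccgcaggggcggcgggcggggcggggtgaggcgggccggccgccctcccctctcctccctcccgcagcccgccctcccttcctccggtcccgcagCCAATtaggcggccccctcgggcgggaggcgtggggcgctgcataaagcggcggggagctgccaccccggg
ALDH1B1: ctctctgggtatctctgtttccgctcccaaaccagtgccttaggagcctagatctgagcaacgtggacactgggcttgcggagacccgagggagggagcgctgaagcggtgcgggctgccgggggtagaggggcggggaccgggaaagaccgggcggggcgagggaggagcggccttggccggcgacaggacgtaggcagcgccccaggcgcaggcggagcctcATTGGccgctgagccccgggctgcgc

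The ALDH1A1 window was poor in G and C (38.4%, above 4.4% of 18543 protein-coding genes) and had 6 CpG dinucleotides. The ALDH1A3 window was among the richest, at 82.4% G and C, above 97.5% of genes, with 38 CpG. ALDH1B1, with 70.4% and 23 CpG, stood above the median gene, which had 63.6% and 19 CpG. The other 7 members ranged from 50.8% in ALDH3A1 to 76.4% in ALDH2. Some windows lie partly in annotated exons, from 0 bases in ALDH1B1 and ALDH3B1 to 212 in ALDH1A2 and 225 in ALDH3A2. The letters CCAAT were found on either strand in 8 of the 10 members, all but ALDH3B1 and ALDH9A1, and in 34.2% of all genes. TATAAA occurred in none of the 10 and in 9.0% of all genes. The palindromic estrogen response element, GGTCA and its reverse complement TGACC with 3 free bases between them, also occurred in none of the 10, and in 4 of the 18543 windows. GGTCA alone was found in 1 member, ALDH1A2, and in 30.2% of all genes. GCGTG, the core bound by the aryl hydrocarbon receptor, was found in ALDH1A2, ALDH1A3, ALDH3A1 and ALDH3A2 and in 41.0% of all genes. The antioxidant response core bound by NRF2, TGAC and GC with 3 free bases between them, was found in none of the 10 and in 11.3% of all genes. These motifs were chosen with the expression values known, and a match is a description of the letters only.

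The members fell into 3 tiers of expression in the Vehicle libraries. ALDH9A1, ALDH1B1, ALDH7A1, ALDH3A2 and ALDH2 were abundant, ALDH1A1 and ALDH1A2 were moderate, and ALDH1A3, ALDH3A1 and ALDH3B1 were close to absent. Levels were compared as TPM, with the length of each gene taken as all its annotated exons joined. On that scale the 5 abundant genes made up 96.3% to 96.7% of the summed member TPM in each of the 4 libraries. The 3 retinaldehyde dehydrogenases together made up 3.19% to 3.55%. ALDH1A1 alone made up 1.88% ± 0.127 (SD, n = 2) in Vehicle and 1.92% ± 0.0533 (SD, n = 2) in LY500307, a difference within the spread of the replicates.

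ALDH9A1 (chr1:165631453-165667799, minus strand), which oxidizes an aldehyde in carnitine synthesis, led the order with a Vehicle mean of 207 TPM and held 43.2% ± 0.627 (SD, n = 2) of the summed member TPM. ALDH1B1 (chr9:38392699-38398658, plus strand), a mitochondrial enzyme related to ALDH2, followed at 132 TPM. ALDH7A1 (chr5:125866892-125931054, minus strand), which acts in lysine breakdown, stood at 46.6 TPM. ALDH3A2 (chr17:19551449-19589073, plus strand), the fatty aldehyde dehydrogenase of the endoplasmic reticulum, stood at 42.1 TPM and overlapped ALDH7A1 over the 4 libraries. ALDH2 (chr12:112204691-112255336, plus strand), the mitochondrial enzyme that clears acetaldehyde, stood at 34.4 TPM. ALDH9A1 exceeded 95.3% of the genes with a length and ALDH2 exceeded 70.4%.

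ALDH1A1 (chr9:75515587-75695358, minus strand) had a Vehicle mean of 9.0 TPM, above 52.9% of genes. ALDH1A2 (chr15:58245622-58790065, minus strand) had 7.07 TPM, above 50.7% of genes. Both were thus near the middle of all genes with a length, a set that includes unexpressed genes. Of the 23228 genes counted, 4821 had 0 reads in every library, so among expressed genes both stood lower. ALDH1A3 (chr15:101417919-101456831, plus strand) had 0.376 TPM, ALDH3A1 (chr17:19641297-19652256, minus strand), abundant in the cornea, had 0.27 TPM, and ALDH3B1 (chr11:67776048-67796749, plus strand), a membrane-bound enzyme for lipid aldehydes, had 0.182 TPM. These 3 genes overlapped one another and their order could not be told apart. Neighbouring members from the first to the seventh did not overlap, except ALDH7A1 and ALDH3A2.

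The order within the abundant tier depended on the length used. ALDH7A1 has 17914 exonic bases in all but 4765 in its canonical transcript, and ALDH3A2 has 15331 against 3703. With the longest transcript the order was ALDH9A1 (182 TPM), ALDH7A1 (123), ALDH1B1 (94.9), ALDH3A2 (88.9) and ALDH2 (24.5). There ALDH1B1 and ALDH3A2 overlapped over the 4 libraries, though not in Vehicle. With the coding length ALDH7A1 led at 127 TPM, ahead of ALDH3A2 at 109 and ALDH9A1 at 98.0. At that length ALDH3A2 and ALDH9A1 overlapped over the 4 libraries, though not in Vehicle. ALDH1A2 stood above ALDH1A1 with the longest transcript, the canonical transcript and the coding length, and below it with all exons joined. The 3 tiers were drawn from these same values, and they did not overlap under any of the 4 lengths. How far ALDH2 stood from the moderate genes depended on the length. With the canonical transcript its step down to ALDH1A2 was 2.06-fold, smaller than the 3.87-fold step from ALDH1B1 to ALDH2. With the longest transcript that step was 2.26-fold, against 3.62-fold from ALDH3A2 to ALDH2. ALDH2 stood 3.82-fold above ALDH1A1 with all exons joined, and 5.84-fold above ALDH1A2 with the coding length.

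**Figure D1:**
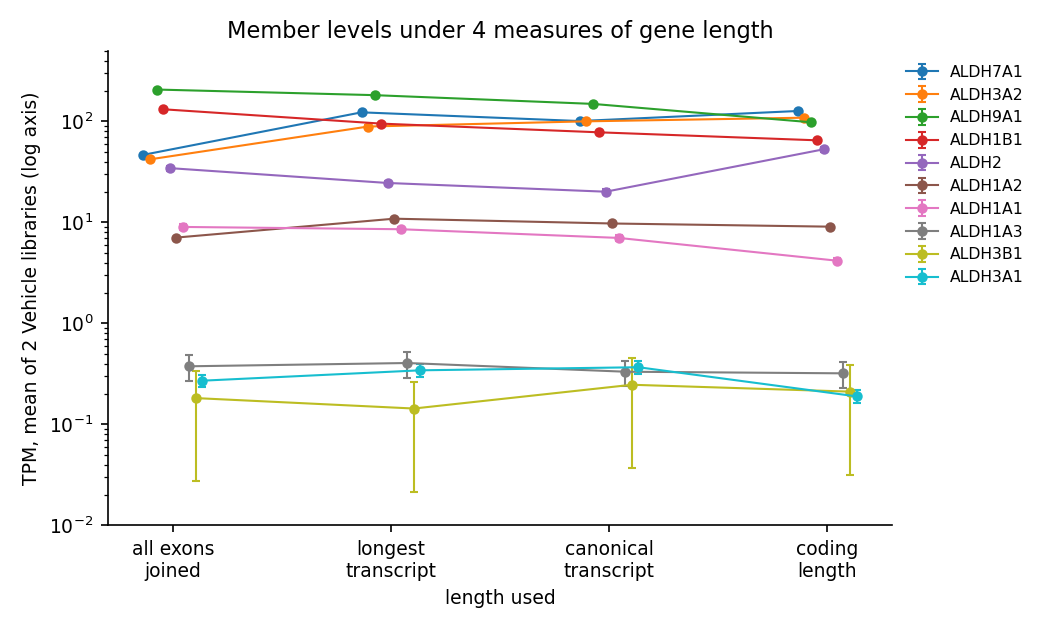
Mean TPM of each member in the 2 Vehicle libraries (log axis) under 4 measures of gene length, with bars that span the 2 libraries. ALDH9A1 is highest at 207, 182 and 149 TPM under the transcript-based lengths and behind ALDH7A1 and ALDH3A2 at 98.0 with the coding length, and the 3 lowest genes have means of at most 0.405 TPM.

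Whether treatment with the agonist changed these transcripts was asked with edgeR's quasi-likelihood test across 14473 genes that passed a filter on low counts. The study called a gene at an unadjusted p below 0.05 with a log2 fold change beyond 0.5 in either direction, and these criteria were met by 669 genes (4.62%), 400 of them higher and 269 lower with LY500307. Of the 10 members, 8 were tested and none met the criteria or had an unadjusted p below 0.05. No gene of any kind had a Benjamini-Hochberg adjusted p below 0.05 (0.0%), against 20 genes by DESeq2, while 1678 genes had an unadjusted p below 0.05. The log2 fold change was above 0 for 6 of the 8 tested members, with a median of 0.074, against 7233 of all tested genes and a median of 0.00.

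The 95% interval of the log2 fold change lay wholly within ±0.5 for 5 of the 8 tested members, ALDH1B1, ALDH2, ALDH3A2, ALDH7A1 and ALDH9A1. The same held for 43.1% of all tested genes. The libraries of the treatments did not overlap in CPM for 5 members, 4 of them higher with LY500307 (ALDH1A1, ALDH1B1, ALDH3A2 and ALDH7A1) and 1 lower (ALDH1A2). Such a separation was seen in 48.6% of all tested genes and a separation upward in 24.2%, so it is common in these data. The summed CPM of the 10 members was 578.2 and 567.5 in Vehicle and 592.5 and 627.3 in LY500307. In bulk RNA, a change in the number of cells expressing a gene and a change in RNA per cell cannot be told apart.

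**Figure D2:**
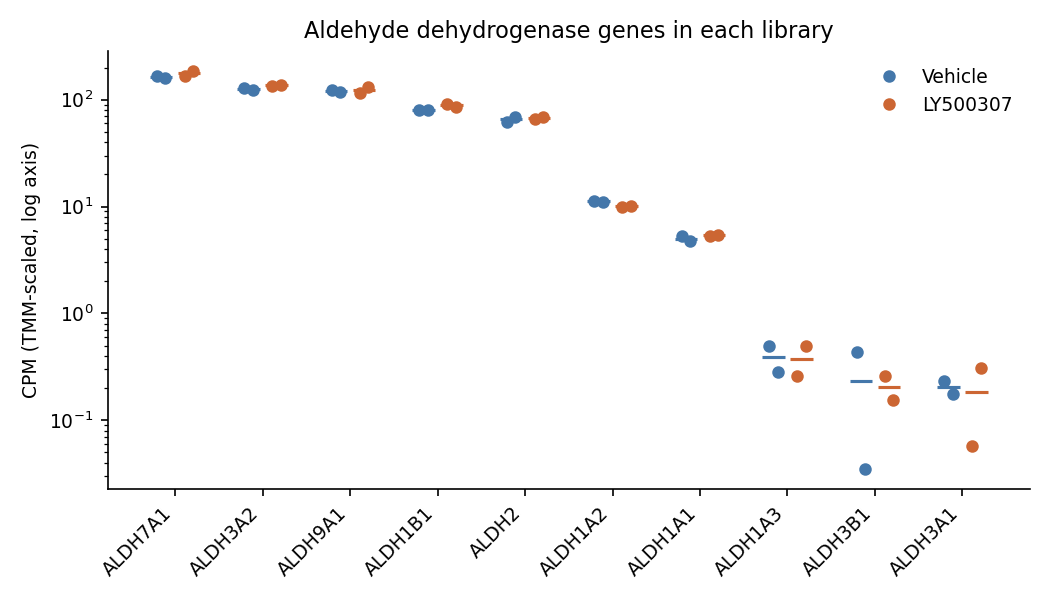
CPM of the 10 members in each library (log axis), with Vehicle in blue and LY500307 in orange, points for libraries and lines for the mean of 2. CPM is not scaled to length, so it compares libraries within a gene. The points of ALDH7A1 lie between 159.3 and 187.0, those of ALDH3B1 and ALDH3A1 below 0.5, and the 2 treatments lie close together in the 7 genes on the left.

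Among the retinaldehyde dehydrogenases, ALDH1A1 had 158 and 134 reads in Vehicle and 185 and 175 in LY500307. Scaled to depth these were 5.27 and 4.71 CPM against 5.33 and 5.41 CPM. The LY500307 libraries were narrowly above both Vehicle libraries, and the gap between the groups was smaller than the gap between the Vehicle replicates. This gave a log2 fold change of 0.10 (SE 0.20, adjusted p = 0.836), with a 95% interval from -0.36 to 0.57. The interval reaches past 0.5, so a change of that size upward could not be told from none in ALDH1A1.

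ALDH1A2, the enzyme that makes retinoic acid in the embryo, had 340 and 315 reads in Vehicle and 347 and 326 in LY500307. At 11.3 and 11.1 CPM against 9.998 and 10.1 CPM, it was the member whose treated libraries both lay below the Vehicle libraries. Its log2 fold change was -0.16 (SE 0.16, 95% interval -0.53 to 0.21, adjusted p = 0.667). ALDH1A2 shares 354 exonic bases with AQP9 on the opposite strand, and whether counting used the strand is not given in the sources used here.

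ALDH1A3, which also makes retinoic acid and marks ALDH+ cells of some carcinomas, had 15 and 8 reads in Vehicle and 9 and 16 in LY500307. The exact Poisson 95% intervals, which cover counting error only, ran from 8.40 to 24.74 for the 15 reads and from 3.45 to 15.76 for the 8. The treatments overlapped and the log2 fold change was -0.07 with a 95% interval from -1.55 to 1.42. Against LY500307 replicate 1 alone it was -0.59 and against replicate 2 alone 0.34.

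Of the mitochondrial enzymes, ALDH1B1 had 2387 and 2292 reads in Vehicle and 3162 and 2789 in LY500307. The levels were 79.6 and 80.6 CPM against 91.1 and 86.3 CPM, or 80.1 ± 0.708 against 88.7 ± 3.41 (SD, n = 2). Both treated libraries were higher, and the gap exceeded the spread of either pair. The log2 fold change of 0.15 (SE 0.10, 95% interval -0.08 to 0.37) was the highest among the tested members and did not pass the test (adjusted p = 0.535).

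ALDH2 had 1849 and 1964 reads in Vehicle and 2292 and 2222 in LY500307. The 61.7 and 69.1 CPM of Vehicle enclosed the 66.0 and 68.7 CPM of LY500307. The log2 fold change was 0.04 (SE 0.11, 95% interval -0.21 to 0.30, adjusted p = 0.877).

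Among the enzymes for lipid aldehydes, ALDH3A2 had 3856 and 3501 reads in Vehicle and 4713 and 4406 in LY500307. The treated libraries, 135.8 and 136.3 CPM, were both above the Vehicle libraries, 128.7 and 123.2 CPM. With an interval from -0.11 to 0.33, the log2 fold change of 0.11 (SE 0.09) did not pass the test (adjusted p = 0.611).

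The related ALDH3A1 and ALDH3B1 did not pass the filter and have no test. ALDH3A1 had 7 and 5 reads in Vehicle and 2 and 10 in LY500307, and ALDH3B1 had 13 and 1 reads against 9 and 5. In both genes the treatments overlapped and the replicates of a treatment differed by at least as much as the treatments did. A difference between the treatments was not detectable at this depth.

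Of the enzymes in amino acid and carnitine metabolism, ALDH7A1 had 5003 and 4527 reads in Vehicle and 5815 and 6044 in LY500307. The levels were 166.9 and 159.3 CPM against 167.6 and 187.0 CPM, so that LY500307 replicate 1 was just above the higher Vehicle library and replicate 2 stood apart. Over both treated libraries the log2 fold change was 0.12 (SE 0.10, 95% interval -0.12 to 0.36, adjusted p = 0.619). It was 0.04 against LY500307 replicate 1 alone and 0.20 against replicate 2 alone. In the second case LY500307 replicate 1 was left out, so the fit held a single treated library. The spread in that fit came from the Vehicle pair alone, the closer of the pairs, and the lone treated library was assumed to vary like it. Over the settings that kept all 4 libraries the adjusted p of ALDH7A1 ranged from 0.529 to 0.798. The annotation holds 4 processed pseudogenes of ALDH7A1, with which reads may be shared.

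ALDH9A1 had 3702 and 3383 reads in Vehicle and 4030 and 4282 in LY500307. The levels were 123.5 and 119.0 CPM against 116.1 and 132.5 CPM, with the treated libraries on either side of the Vehicle pair. Their mean gave a log2 fold change of 0.04 (SE 0.11, 95% interval -0.21 to 0.28, adjusted p = 0.897). With LY500307 replicate 2 left out it was -0.06, so its direction rested on that library.

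**Figure D3:**
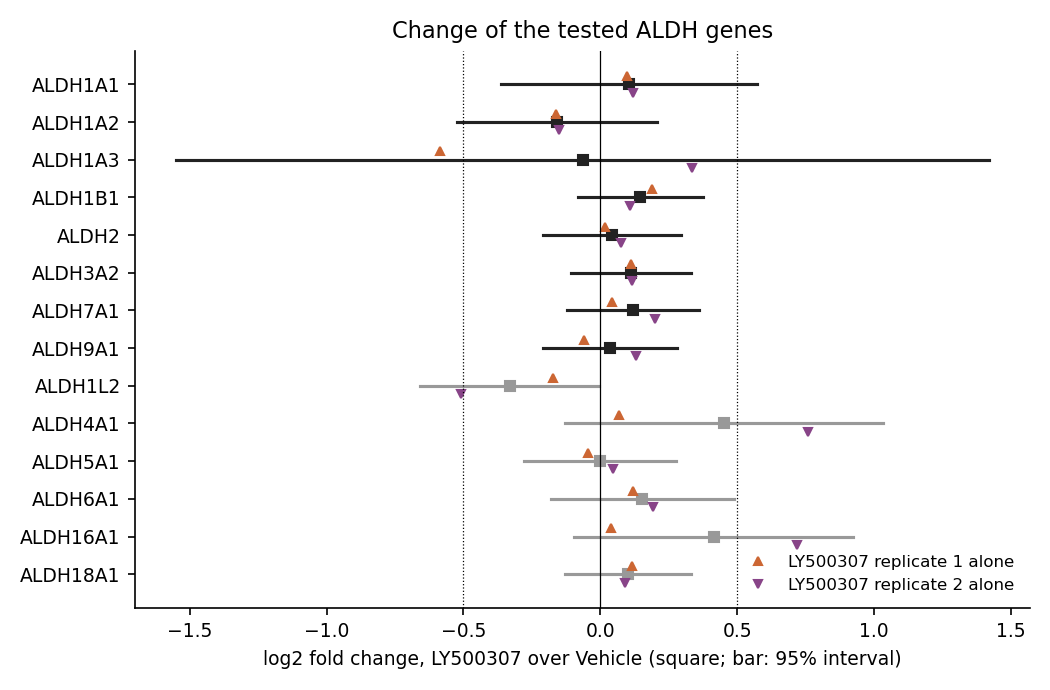
Log2 fold change of LY500307 over Vehicle for the 8 tested members (black) and 6 other tested ALDH genes (grey), with 95% intervals. Triangles show the value against each LY500307 library alone, and dotted lines mark ±0.5. ALDH1A3 has the widest interval, -1.55 to 1.42, and ALDH4A1 and ALDH16A1 show the widest gaps between the 2 treated libraries among the grey genes.

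The 9 other ALDH genes of the human family serve mainly in folate, proline and other amino acid pathways. ALDH1L1 and ALDH3B2 had 0 reads in all 4 libraries, where 3 reads would correspond to 0.0864 to 0.106 CPM per library. ALDH8A1 had 4, 4, 10 and 7 reads and was not tested. None of the 6 tested genes met the study criteria. ALDH18A1, which makes the precursor of proline, was the most abundant of them at 181.3 TPM in Vehicle, and had a log2 fold change of 0.10. ALDH5A1, which oxidizes succinic semialdehyde, had a log2 fold change of 0.00, and ALDH6A1, an enzyme of valine breakdown, had 0.15.

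Among all 14473 tested genes 1678 had an unadjusted p below 0.05, and among the 14 tested ALDH genes 1 did. That gene was ALDH1L2, a mitochondrial enzyme of folate metabolism. It had 1253 and 1254 reads in Vehicle and 1322 and 975 in LY500307, or 41.8 and 44.1 CPM against 38.1 and 30.2 CPM. The log2 fold change was -0.33 (SE 0.14, adjusted p = 0.428), short of the 0.5 limit. Its unadjusted p was no longer below 0.05 with library totals alone, DESeq2, the GC correction with or without the block, or when either Vehicle library or LY500307 replicate 2 was left out. ALDH4A1, which degrades a product of proline, had 7.11 and 8.69 CPM in Vehicle and 8.27 and 13.3 CPM in LY500307. ALDH16A1 had 22.1 and 18.9 CPM against 21.0 and 33.7 CPM. In both genes LY500307 replicate 2 was high while replicate 1 lay between the Vehicle libraries. Their log2 fold changes were 0.45 (adjusted p = 0.474) and 0.41 (adjusted p = 0.459). Without LY500307 replicate 1 they became 0.76 and 0.72, and that of ALDH1L2 became -0.51, all beyond the 0.5 limit. The spread in that fit again came from the Vehicle pair alone.

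The genes around the retinaldehyde dehydrogenases in the retinoid pathway were examined next. Of 24 enzymes, carriers and receptors, 18 were tested, 1 met the criteria upward and 1 downward, with a median log2 fold change of 0.071. Over all tested genes 4.62% met the criteria in either direction. The list held 14 genes above 0, against 7233 of all 14473 tested genes. RDH14, a retinol dehydrogenase, had 115 and 83 reads in Vehicle and 179 and 175 in LY500307, and rose by these criteria (log2 fold change 0.64, SE 0.23, adjusted p = 0.422). Without Vehicle replicate 2 it was 0.46 and no longer met them. FABP5, a fatty acid carrier that also delivers retinoic acid, had 20 and 16 reads against 10 and 5, and fell by 1.45 on the log2 scale (adjusted p = 0.428). That call was lost when any one library was left out, with DESeq2, without the filter and with the replicate block and GC correction together, and the annotation lists 15 FABP5 pseudogene loci. CRABP2, which carries retinoic acid to its receptors, was the most expressed of the list at 350.4 TPM, with a log2 fold change of -0.13.

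Some receptors and degrading enzymes of the pathway were also expressed, and others were close to absent. RARB had 13 to 24 reads, RXRG at most 1 and CYP26C1 at most 3. RXRA, RXRB and CYP26B1 had at least 7.107 CPM in each library. RARG, a retinoic acid receptor gene, had 62.5 CPM in Vehicle and 64.3 CPM in LY500307, and RARA had 28.1 and 30.4 CPM. CYP26A1, which degrades retinoic acid and is induced by it, had 7.07 and 7.18 CPM. Of 11 retinoic acid target genes, 8 were tested and none met the criteria. Above 0 lay 6 of them, against 7233 of all 14473 tested genes, and the median log2 fold change was 0.046. Some of these genes, such as CRABP2, are in both lists.

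Other enzymes that handle aldehydes or alcohols did not meet the criteria either, in 11 tested genes of 19. Their median log2 fold change was 0.243, and their summed level was 257, 235, 251 and 376 CPM in Vehicle 1 and 2 and LY500307 1 and 2. The high value belonged to LY500307 replicate 2. ADH5, which clears formaldehyde, was the most expressed at 120.7 TPM, with 118.7 and 110.7 CPM in Vehicle and 113.6 and 161.1 CPM in LY500307. Its log2 fold change was 0.26 over both treated libraries, and -0.01 without LY500307 replicate 2. CBR1, a carbonyl reductase gene, was listed at 0 in all 4 libraries.

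The ALDEFLUOR product leaves cells through ABC transporters, which the assay buffer blocks. Of ABCB1, ABCC1 and ABCG2, all 3 were tested and none met the criteria. ABCC1 was the most expressed at 66.7 TPM, and had 115.9 and 111.7 CPM in Vehicle and 119.2 and 124.0 CPM in LY500307 (log2 fold change 0.10, adjusted p = 0.669).

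ALDH3A1 is a known target of the aryl hydrocarbon receptor (AHR), and several aldehyde-handling enzymes are targets of NRF2, the regulator of the response to oxidative stress. Of 6 AHR target genes, 5 were tested and 1, AHRR, met the criteria, against a background of 4.62%. AHRR, the repressor of the receptor, had 18 and 18 reads in Vehicle and 57 and 56 in LY500307. It rose by a log2 fold change of 1.45 (SE 0.38, adjusted p = 0.422) and met the criteria under every alternative run. CYP1A1 and CYP1B1, the targets most often measured, had log2 fold changes of 0.18 (adjusted p = 0.814) and 0.17 (adjusted p = 0.556), and ALDH3A1 stayed at 10 reads or fewer.

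Of 8 NRF2 target genes, all were tested and 1 met the criteria, against a background of 4.62%. HMOX1, heme oxygenase, had 1040 and 963 reads in Vehicle and 1560 and 1985 in LY500307, and rose by a log2 fold change of 0.63 (SE 0.16, adjusted p = 0.422). Without LY500307 replicate 2 it was 0.39 and fell short of the limit. NQO1, which is also a target of the aryl hydrocarbon receptor, was the most expressed gene of both lists at 463.2 TPM, with a log2 fold change of 0.04 (adjusted p = 0.892). The median of the list was 0.004.

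**Figure D4:**
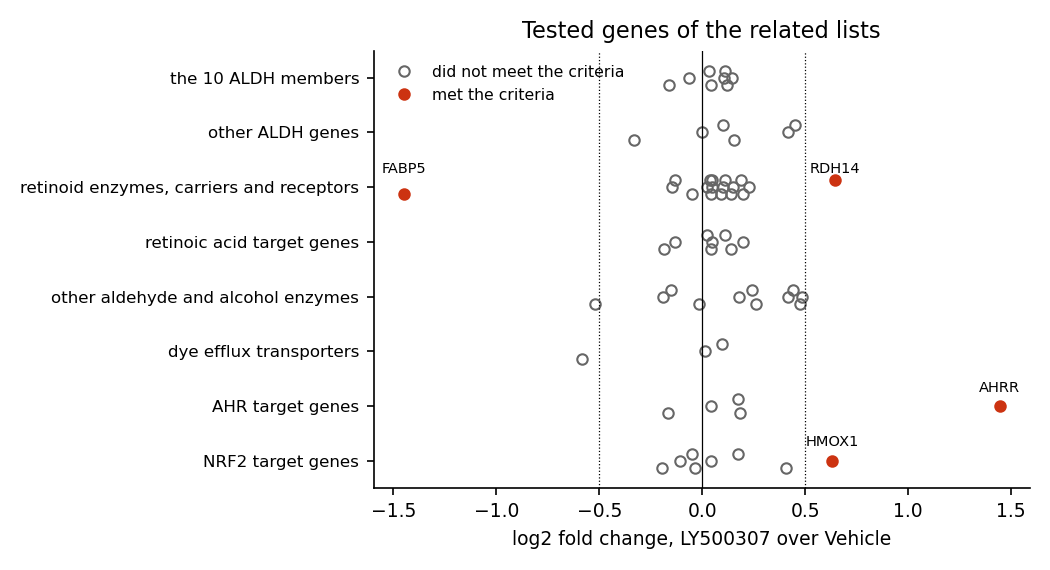
Log2 fold change of LY500307 over Vehicle for each tested gene of the related lists, with dotted lines at ±0.5 and filled points for genes that met the study criteria. The filled points are RDH14 at 0.64, FABP5 at -1.45, AHRR at 1.45 and HMOX1 at 0.63, and all 8 tested members lie between -0.16 and 0.15.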

How the data were processed

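RNA of 4 samples was sequenced as 50-base single-end reads. The labels name a total RNA kit and the study's methods a stranded mRNA kit, and which was used was not settled here. According to the processing notes, the authors aligned reads to hg19 with TopHat2 2.0.8b and counted them per gene with HTSeq. The deposited values are whole-number read counts per gene with no normalization. Rows that name no gene were left out. The row of reads outside genes held 25.5% to 30.8%, as a share of the gene reads, that row and the next such row. Genes that pass edgeR's default filter on low counts were tested with edgeR 4.0.16 (R 4.3.3) with TMM scaling and the quasi-likelihood test, without a replicate block, and standard errors and 95% intervals came from the same fit. DESeq2 1.42.0, the study's tool, was an alternative, as were other scalings, no filter, a block, a GC correction and leaving out each library. The fits were also run on simulated counts that gave each gene the same spread in both treatments. The real pairs differed in spread, so that run does not show how the fits behave on these data. TPM used lengths from a GENCODE annotation of GRCh37 (the assembly of hg19), matched to 91.6% of 23228 symbols. Replicate numbers were not taken to pair libraries. Members and lists were chosen with earlier results of these data known. The genes named are the 10 members, the 9 other ALDH genes, ESR1 and ESR2, and from each list up to 4 genes meeting the criteria with its most expressed gene. Other genes given with values (CYP1A1, CYP1B1, CYP26A1, CYP26B1, CYP26C1, RARA, RARB, RARG, RXRA, RXRB, RXRG, CBR1 and the cell markers) were picked after their values were seen. Gene coordinates and promoter windows are from GRCh37.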

Additional observations from a re-analysis of the deposited data

How the results depend on the processing

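None of the 8 tested members met the study criteria under any of the alternatives, the replicate block included (0 members). Deviations of same-numbered libraries correlated at -0.07, so no pairing by replicate number was seen. With 2 libraries a treatment this is 1 correlation, which cannot exclude pairing. With the replicate block 717 genes met the criteria and 1 gene had an adjusted p below 0.05, against 669 and 0 without it. The block with a GC correction gave 3 genes with an adjusted p below 0.05 and DESeq2 gave 20. Leaving out one library moved the genes meeting the criteria over a range of 352 to 1987 (the lower without LY500307 replicate 2, the higher without its replicate 1), and those with an adjusted p below 0.05 from 0 to 5002, with 590 without LY500307 replicate 2, and the cause was not tested. A fit without one library takes its spread from the remaining pair alone and assumes that the lone library varies like it. Fold changes that turned sign when a library was left out ranged, in log2, from -0.59 to 0.41 for ALDH1A3, -0.04 to 0.13 for ALDH2, -0.06 to 0.13 for ALDH9A1, -0.04 to 0.05 for ALDH5A1, -0.39 to 0.09 for CRABP2, -0.01 to 0.49 for ADH5 and -0.10 to 0.18 for NQO1. ALDH5A1 also turned to 0.04 with library totals alone and to 0.03 with the GC correction, with or without the block. MUC1 lost its call without either Vehicle library (-0.58 and -0.59) and without LY500307 replicate 2 (-0.38). The share of ALDH9A1 in the summed member TPM, 43.2%, was 34.1% with the longest transcript, 32.0% with the canonical transcript and 21.1% with the coding length, the last 2 chosen after seeing the data, 27.5% over all 19 ALDH genes, and 42.7% to 43.6% when a Vehicle library was left out. A coding length from protein sequences was not run. With 2 libraries a treatment, no library can be judged to stand apart from the others of its treatment by a test.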
